A study of Mus musculus with 4 samples.

Results

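The interleukin 1 family and the inflammasome are represented by 10 genes, measured in marrow-derived dendritic cells (DCs) of the mouse. Il1a, Il1b and Il18 encode the cytokines, Il1rn the receptor antagonist, Il1r2 the decoy receptor and Il1rap the shared receptor chain, while Nlrp3, Pycard, Casp1 and Casp4 encode the sensor, the adaptor and the caspases of the inflammasome. The genes were chosen by symbol, and all 18 probe sets annotated to exactly 1 of these symbols were taken, out of 45037 on the array after its controls were left out. They represent 10 of the 18193 genes that could be named. The cultures came from wild-type (WT) mice and from mice with a combined deficiency of the liver X receptors LXRα and LXRβ (LXR-DKO), oxysterol-activated nuclear receptors, all labelled as strain C57/BL6. Bone marrow was cultured for 6 to 7 days with the growth factor GM-CSF at 20 ng/mL, and non-adherent cells were enriched on beads for the integrin CD11c. The 4 groups were WT control and LXR-DKO control, which stayed in GM-CSF at 10 ng/mL for 24 h and are called untreated below, and WT LPS and LXR-DKO LPS, which also received the Toll-like receptor ligand lipopolysaccharide at 100 ng/mL to mature them. Each group is 1 array of 1 culture. Neither the age or sex of the mice, nor pooling of marrow, nor the origin and backcrossing of the LXR-DKO line is stated in the labels used here, and any difference between cultures, hybridisations or days cannot be told apart from genotype or treatment. With so few arrays precision is limited, and no p-value was computed.

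Interleukin 1α and interleukin 1β signal through the same receptor, which needs the accessory chain encoded by Il1rap. The receptor antagonist occupies that receptor without signalling, and the decoy receptor binds the cytokine without passing a signal on. Interleukin 1β and interleukin 18 are made as precursors and are cut by caspase 1 once a sensor such as NLRP3 has assembled with the adaptor ASC, which Pycard encodes, whereas caspase 11, encoded by Casp4 in the mouse, senses lipopolysaccharide inside the cell. In DCs some of these genes are known for a first step at the transcript level, set off by Toll-like receptors. A second step is at the protein level, which arrays do not see.

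Values are MAS5 signals on a linear scale, and the median signal of all probe sets, 28.9, was used as a floor below which a signal gives only a limit. Each gene was taken by its brightest probe set. A gene counted as measured when at least 1 array of the comparison reached the floor, and ratios of at least 2-fold, a log2 ratio of 1, were counted. Where a gene has several probe sets, the SD of their log2 ratios gives the only internal error, called the probe-set spread below. Pooled over genes it was 0.29 for the response to LPS of wild-type cells, 0.42 for that of LXR-DKO cells, 0.45 for the genotype difference in control cultures and 0.54 for that with LPS.

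The cultures differed in more than the targeted receptors. Nr1h3, which encodes LXRα, had signals of 108.6 untreated and 54.5 after LPS for wild-type cells, and 40.4 untreated and 27.0 after LPS for LXR-DKO cells. The last of these lay below the floor. Which part of the gene was deleted is not stated in the labels used here, so these signals are no check of the deletion. Nr1h2, which encodes LXRβ, could not be named on the array and has no value here. Among the DC markers, Itgax, which encodes CD11c, had signals between 3848.1 and 6093.0 on all arrays. Dpp4 lay below the floor on both WT arrays, Flt3 on every array but LXR-DKO LPS, and Xcr1 on all 4. Flt3 and Dpp4 were chosen after their values were seen. In LXR-DKO over WT, 7 of 11 measured conventional DC markers in control and 8 of 12 with LPS were past 2-fold upward and 0 downward, with median log2 ratios of 1.77 and 2.14. For this and the marker counts below, the shares of all measured genes were 12.7% in control and 17.8% with LPS upward, and 9.28% and 8.76% downward. Of 11 macrophage and monocyte markers, 8 to 11 reached the floor in each culture. In LXR-DKO 5 of them were past 2-fold upward in each condition, and 2 in control and 1 with LPS downward. The complement gene C1qa had signals of 18.0 and 1.5 in WT against 5335.4 and 2680.3, and C1qb and C1qc were also higher. In contrast, Cd68 and Mrc1 were lower in both conditions. Mrc1 had signals of 1939.9 and 285.0 in WT against 378.9 and 149.3. Of 11 neutrophil and granulocyte precursor markers, 6 reached the floor in untreated and 4 in LPS-treated wild-type cells, and 11 and 10 in the LXR-DKO pair. In LXR-DKO over WT, 7 of 11 in control and 8 of 10 measured with LPS were past 2-fold upward, and 1 downward in each. The median signals of the 11 were 37.0, 23.2, 947.9 and 894.0 in the order WT control, WT LPS, LXR-DKO control and LXR-DKO LPS. None was at exactly 0 on any array, and Ngp, Ltf, Cxcr2 and Stfa2l1 lay below the floor on both WT arrays. The summed signals of 11 mast cell, basophil and eosinophil markers were 656.1, 818.4, 1983.4 and 3516.0, those of 7 B cell markers 355.7, 370.7, 681.1 and 2129.1, and those of 5 T and NK cell markers at most 103.4. In LXR-DKO over WT, 6 of 10 measured mast cell, basophil and eosinophil markers in control and 9 of 10 with LPS were past 2-fold upward. For B cell markers these were 3 of 6 and 4 of 7, and 0 of either list were past it downward. Xist, which marks an inactive X chromosome, had signals of 30.8 and 22.7 in wild-type cells (untreated, LPS) and 2750.0 and 2090.4 in their LXR-DKO counterparts, and 0 of the 10 genes lie on the X or Y chromosome. The Y-linked Eif2s3y had 736.6 and 721.0 in WT against 279.6 and 384.3, and Kdm5d 126.2 and 98.1 against 56.1 and 93.2, so both were above the floor in both genotypes. The part that cell composition or the sex of the mice had in the genotype differences was not tested. In such bulk samples, fewer cells of a type and less RNA per cell cannot be told apart.

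**Figure D1:**
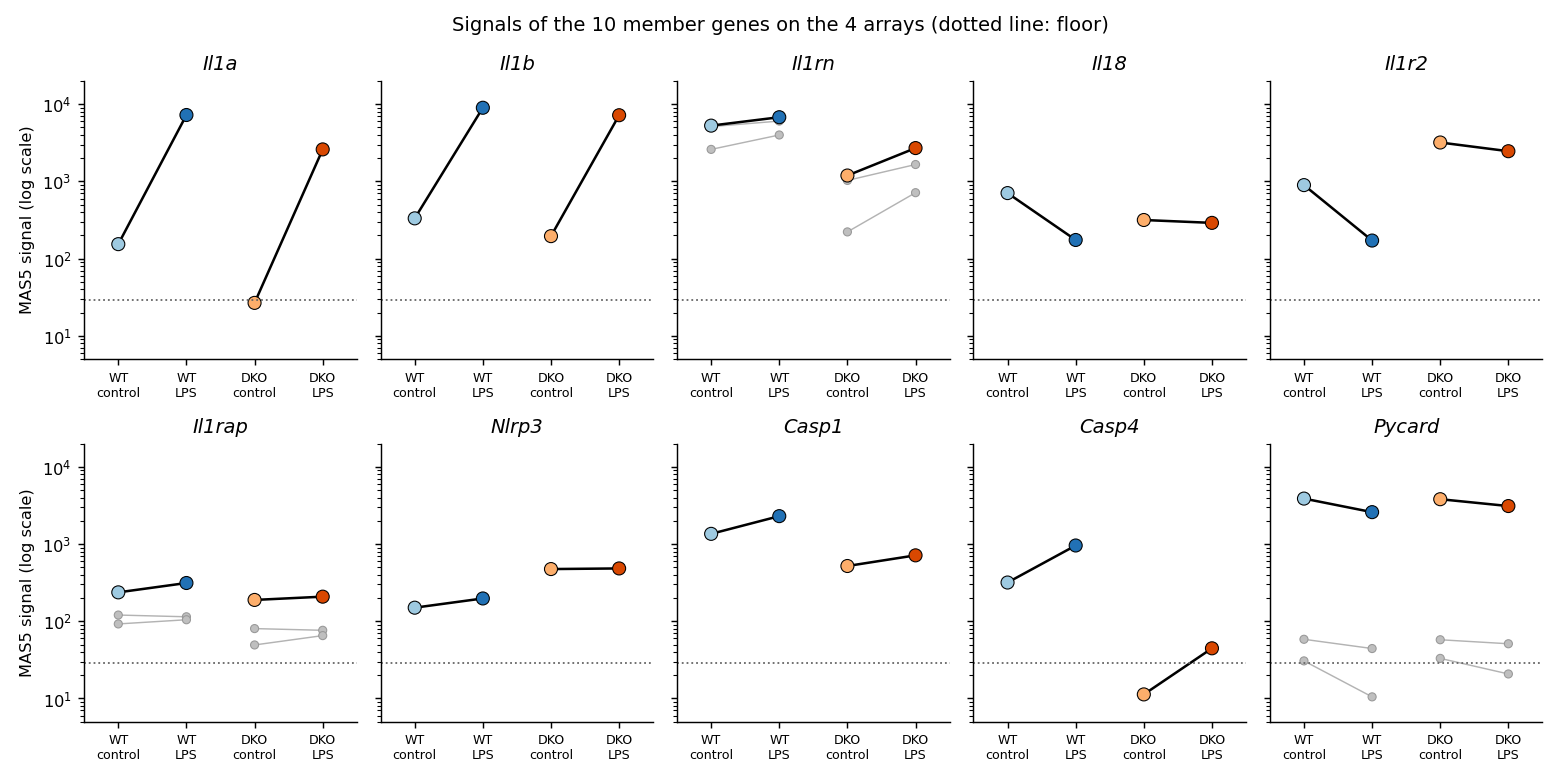
MAS5 signal on a logarithmic axis for each of the 10 genes on the 4 arrays, with 1 array per group, lines joining control and LPS of a genotype, coloured points for the probe set used and grey points for the other probe sets that reach the floor of 28.9 (dotted line). The steep lines of Il1a and Il1b in both genotypes contrast with the flat lines of Nlrp3 and Pycard, and Casp4 lies at 11.3 and 44.7 in LXR-DKO against 318.2 and 960.6 in WT.

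The first question was how these genes differed with LPS within each genotype. In WT, 3 of the 10 were at least 2-fold higher with LPS, namely Il1a, Il1b and Casp4, where 2.93% of 11449 measured genes were, and 2 were at least 2-fold lower, namely Il18 and Il1r2, where 4.79% of all genes were. In LXR-DKO, 3 were higher, namely Il1a, Il1b and Il1rn, against 6.23% of 11793 genes, and 0 were lower, against 1.82%. The median log2 ratio of the 10 was 0.40 in WT and 0.30 in LXR-DKO, beside -0.05 and 0.02 over all measured genes. Both ligand genes of the interleukin 1 receptor thus stood out, while most of the other 8 genes stayed within 2-fold. The second question was how the genotypes differed. In control cultures, 5 of the 10 were at least 2-fold lower in LXR-DKO, namely Il1a, Il1rn, Il18, Casp1 and Casp4, against 9.28% of 11728 genes, and 2 were higher, namely Il1r2 and Nlrp3, against 12.7%. With LPS, Il1a, Il1rn, Casp1 and Casp4 were again lower, which makes 4 of the 10 against 8.76% of 12014 genes, and Il1r2 and Nlrp3 again higher, 2 of the 10 against 17.8%. For genotype, the median log2 ratio over the 10 was -0.96 in control and -0.45 with LPS, beside 0.05 and 0.15 over all genes. The 2 genotype comparisons share no array, but each shares its arrays with the LPS responses.

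Of the 10 genes, Il1a and Il1b had the highest LPS ratios in both genotypes. Il1b had a signal of 332.4 untreated and 9011.6 after LPS for wild-type cells, and 195.6 untreated and 7211.8 after LPS for LXR-DKO cells. Both LPS cultures were therefore far above both control cultures, with a 27.1-fold ratio in WT and a 36.9-fold ratio in LXR-DKO. Between the genotypes Il1b stayed within 2-fold. LXR-DKO stood at a log2 ratio of -0.77 in control and of -0.32 with LPS, the latter within the probe-set spread of 0.54. Il1a, whose product is active without cleavage, had signals of 154.0 untreated and 7258.0 after LPS for wild-type cells, and 26.7 untreated and 2600.9 after LPS for LXR-DKO cells. Its ratio with LPS was 47.1-fold for wild-type cells and at least 90.0-fold for LXR-DKO cells, since the control value of LXR-DKO lay just below the floor. It ranked as the third highest of all measured genes in each genotype. Il1a was lower in LXR-DKO past 2-fold, by at least 5.33-fold in control and by 2.79-fold with LPS, log2 ratios of -2.41 and -1.48. After LPS the LXR-DKO signal of Il1a lay below the wild-type signal, although its ratio over control was the larger.

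Il1a and Il1b are neighbours on chromosome 2, with 0 protein-coding genes between them in the RefSeq annotation. Because both had far higher signals after LPS, the 250 bases before each annotated start are shown, 5′ to 3′ on the strand of the gene, as RefSeq gives them for the build GRCm38.p6. The window of Il1a is chr2:129309973-129310222 and that of Il1b is chr2:129371140-129371389, both on the minus strand and just upstream of the annotated transcription start. Capitals mark matches on either strand to the NF-kappaB core GGNNNTTCC or to the AP-1 motif TGANTCA.
Il1a: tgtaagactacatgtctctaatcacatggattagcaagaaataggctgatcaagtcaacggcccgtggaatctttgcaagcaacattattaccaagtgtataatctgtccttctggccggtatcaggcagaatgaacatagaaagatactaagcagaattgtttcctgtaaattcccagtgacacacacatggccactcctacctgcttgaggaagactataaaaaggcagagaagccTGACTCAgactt
Il1b: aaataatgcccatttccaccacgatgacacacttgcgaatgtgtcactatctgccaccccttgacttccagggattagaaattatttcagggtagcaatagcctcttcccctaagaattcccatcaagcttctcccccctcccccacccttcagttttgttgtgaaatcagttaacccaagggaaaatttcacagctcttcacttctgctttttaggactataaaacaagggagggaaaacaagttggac
The window of Il1a held 1 AP-1 match, beginning 12 bases before the start, and that of Il1b held no match to either motif. The AP-1 motif occurs in 7.82% and the NF-kappaB core in 17.6% of the 27025 genes with a promoter in the table, counting every window of a gene. A match is only a run of letters, and these windows leave out more distant regulatory sequence. Neither window holds the interferon-stimulated response element core GAAANNGAA, which none of the 14 windows of the 10 genes holds, against 7.13% of all windows.

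Il18 behaved differently from both interleukin 1 genes. It encodes a cytokine that drives interferon gamma production in lymphocytes. Its signals were 706.5 untreated and 174.4 after LPS for wild-type cells, and 316.5 untreated and 290.5 after LPS for LXR-DKO cells. WT control was the highest and WT LPS the lowest of the 4, with both LXR-DKO cultures close together between them. With LPS it was 4.05-fold lower in WT, a log2 ratio of -2.02, and 1.09-fold lower in LXR-DKO, a log2 ratio of -0.12 that is within the probe-set spread of 0.42. The genotype difference had opposite signs in the 2 conditions, with a log2 ratio of -1.16 in control, or -0.95 when scaled to hybridisation controls, and of 0.74 with LPS. On the log2 scale the LXR-DKO response minus the wild-type response was 1.89, where the spread between probe sets was 0.43.

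Il1rn, the antagonist gene, was bright on all arrays and lower in LXR-DKO. The brightest of its 3 probe sets gave 5286.5 untreated and 6795.4 after LPS for wild-type cells, and 1193.4 untreated and 2706.7 after LPS for LXR-DKO cells. Both WT values were above both LXR-DKO values, and in this the other 2 probe sets did not differ. LXR-DKO was 4.43-fold lower in control and 2.51-fold lower with LPS. Over the 3 probe sets the log2 ratio was -2.67 ± 0.77 (SD, n = 3 probe sets of the same arrays) in control and -1.89 ± 0.58 with LPS. With LPS the gene was 1.29-fold higher in WT and 2.27-fold higher in LXR-DKO. The 3 probe sets gave log2 LPS responses between 0.24 and 0.62 in WT and between 0.69 and 1.69 in LXR-DKO. They read the same arrays and are no replicates of the cultures. Their difference of responses, LXR-DKO minus WT, lay between 0.45 and 1.07, where the pooled probe-set spread was 0.43.

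The receptor genes went different ways. Il1r2, the decoy receptor gene, had signals of 896.4 untreated and 171.5 after LPS for wild-type cells, and 3196.0 untreated and 2464.5 after LPS for LXR-DKO cells. LXR-DKO cultures were above WT cultures in both conditions, by 3.57-fold in control and by 14.4-fold with LPS. With LPS the gene was 5.23-fold lower in WT and 1.30-fold lower in LXR-DKO, the latter a log2 ratio of -0.37 and within the spread. The difference of the responses was 2.01 on the log2 scale. Il1r2 is also a gene of neutrophils, and the neutrophil marker list had medians of 2.36 in control and 3.34 with LPS for LXR-DKO over WT, with 7 of 11 and then 8 of 10 measured markers past 2-fold upward and 1 past it downward in each. Over all genes, 12.7% and 17.8% were past 2-fold upward and 9.28% and 8.76% downward. With LPS in WT, 7 genes of the same list were measured, with a median of -0.36. This is the value of Mpo, whose signal of 13.4 with LPS lay below the floor. Under a floor at the 75th percentile the median was 0.25. In LXR-DKO the median of 11 genes with LPS was -0.10. The part of these cells in the Il1r2 signal was not tested. Il1rap, the accessory chain gene, stayed within 2-fold in all comparisons. Its brightest probe set gave 237.3, 313.7, 189.3 and 208.7 in WT control, WT LPS, LXR-DKO control and LXR-DKO LPS. Of its 5 probe sets, 3 reached the floor on all arrays and 2 on none, and those 3 gave a genotype log2 ratio, LXR-DKO over WT, of -0.60 ± 0.29 (SD, n = 3 probe sets) in control and -0.62 ± 0.06 with LPS.

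Among the inflammasome genes, the sensor was higher in LXR-DKO, the adaptor was within the spread and both caspases were lower. Nlrp3 had signals of 150.2 untreated and 197.8 after LPS for wild-type cells, and 475.5 untreated and 484.4 after LPS for LXR-DKO cells. Both LXR-DKO values lay above both WT values, by 3.17-fold in control and 2.45-fold with LPS, the latter a log2 ratio of 0.997 when scaled to the same 75th percentile. The LPS response was small, with a log2 ratio of 0.40 in WT and of 0.03 in LXR-DKO, which was below 0 when the arrays were scaled to hybridisation controls. Pycard, the ASC gene, had signals of 3893.5 and 2598.2 in wild-type cells (untreated, LPS) and 3821.5 and 3116.0 in their LXR-DKO counterparts. Its log2 ratio between the genotypes was -0.03 in control and 0.26 with LPS, both within the probe-set spread and of either sign depending on the scaling. A dimmer probe set that reached the floor throughout, with signals between 44.4 and 58.5, gave -0.02 and 0.21, and the other one reached the floor on the untreated arrays, at 30.7 and 33.1.

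Casp1, the gene of the enzyme that cuts both cytokine precursors, had signals of 1359.6 untreated and 2306.0 after LPS for wild-type cells, and 520.9 untreated and 715.8 after LPS for LXR-DKO cells. The LXR-DKO values were lower than both WT values, by 2.61-fold in control and 3.22-fold with LPS. Casp1 was 1.70-fold higher with LPS in WT and 1.37-fold in LXR-DKO, below the 2-fold threshold in both. Casp4 showed the widest genotype gap of the 10 genes. Its signals were 318.2 untreated and 960.6 after LPS for wild-type cells, and 11.3 untreated and 44.7 after LPS for LXR-DKO cells. LXR-DKO was at least 11.0-fold lower in control, where it lay below the floor, and 21.5-fold lower with LPS, the fifth lowest of 12014 log2 ratios. With LPS it was 3.02-fold higher in wild-type cells and at least 1.55-fold higher in LXR-DKO cells. Casp4 has 1 probe set, so its values have no second reading on these arrays, the genomic sequence of the locus in these mice was not analysed here, and under a floor at the 75th percentile the log2 ratio in control was -0.84.

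Casp1 and Casp4 are also neighbours, on chromosome 9, with 0 protein-coding genes between them. The next genes in the RefSeq order, Casp12 and Gria4, were below the floor on all 4 arrays, and Msantd4 beyond Gria4 had a log2 ratio of LXR-DKO over WT of -0.47 in control and of -0.20 with LPS. Further out on that side, Kbtbd3 was at 0.01 and 0.86, Aasdhppt at -0.39 and -0.62 and Cwf19l2 at 0.33 and 0.83. Beyond Casp12 on the other side, Dync2h1 was at -0.27 and -0.80, Dcun1d5 at -0.27 and -0.48 and Mmp13 at -3.07 and -1.27. The windows before their starts are shown in the same way because both genes were lower in LXR-DKO and only Casp4 passed 2-fold with LPS in WT. They are chr9:5298267-5298516 for Casp1 and chr9:5308599-5308848 for Casp4, both on the plus strand and just upstream of the annotated transcription start, with capitals as above, and the second annotated Casp4 window overlaps the one shown.
Casp1: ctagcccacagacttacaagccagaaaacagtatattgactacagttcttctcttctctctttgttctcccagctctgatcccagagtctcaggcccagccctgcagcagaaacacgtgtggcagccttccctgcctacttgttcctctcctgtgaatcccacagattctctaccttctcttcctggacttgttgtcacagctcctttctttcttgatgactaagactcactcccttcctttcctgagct
Casp4: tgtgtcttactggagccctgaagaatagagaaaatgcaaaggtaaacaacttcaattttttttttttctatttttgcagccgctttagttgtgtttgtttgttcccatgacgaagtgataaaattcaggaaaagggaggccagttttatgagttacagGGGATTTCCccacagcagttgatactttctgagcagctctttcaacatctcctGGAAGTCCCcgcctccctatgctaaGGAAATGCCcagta
The Casp4 window held 3 matches to the NF-kappaB core, beginning 92, 39 and 14 bases before the start, and the Casp1 window held 0 matches to either motif. Across the 10 genes, 4 had the NF-kappaB core in at least 1 window, namely Casp4, Nlrp3, Il1rn and Il1r2, beside the 17.6% of all genes. Of these 4, Casp4 passed 2-fold upward with LPS in wild-type cells and Il1rn in LXR-DKO cells, Nlrp3 in neither, and Il1r2 was lower in WT.

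**Figure D2:**
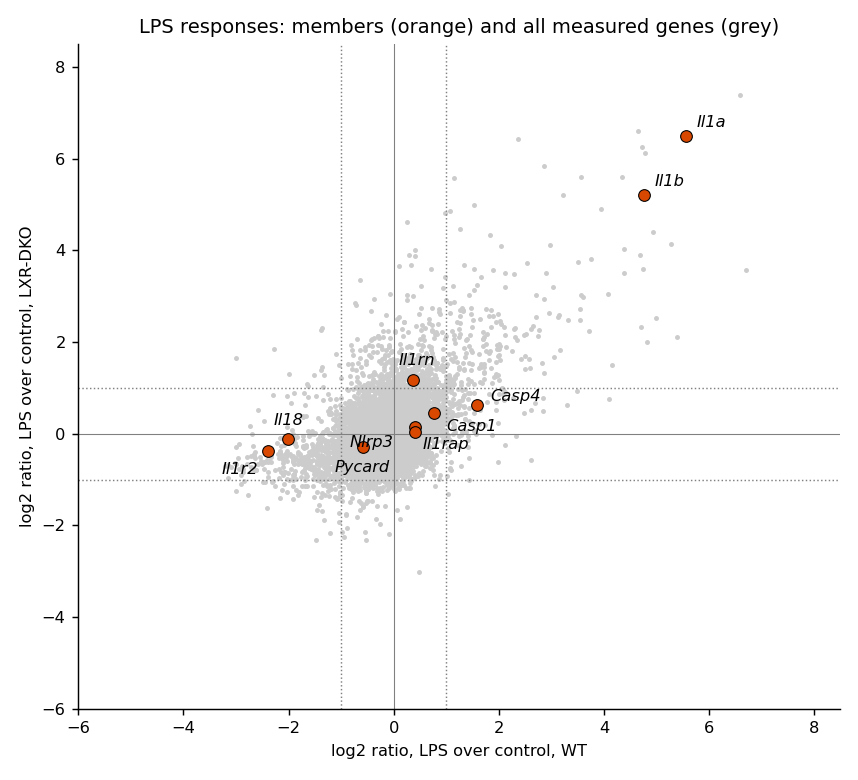
Each grey point is a measured gene, with its log2 ratio of LPS over control in WT on the horizontal axis and in LXR-DKO on the vertical axis, 1 array per group, and dotted lines mark 2-fold. Il1a and Il1b lie at the upper right end of all genes at 5.56 and 4.76 in WT, while Il18 and Il1r2 lie at -2.02 and -2.39 in WT but near 0 in LXR-DKO.

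**Figure D3:**
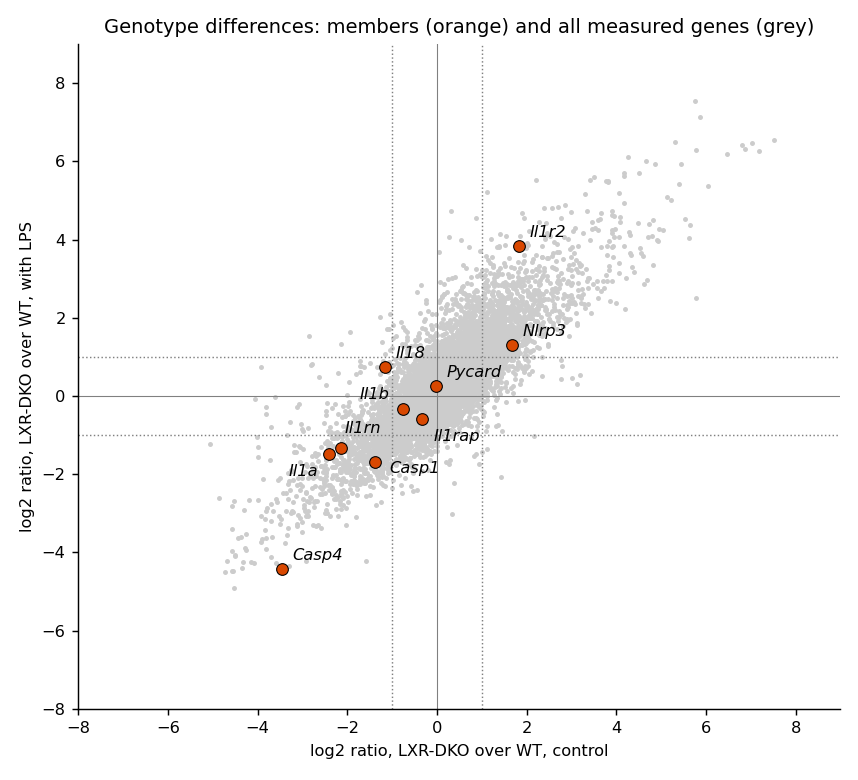
Each grey point is a measured gene, with its log2 ratio of LXR-DKO over WT in control cultures on the horizontal axis and with LPS on the vertical axis, 1 array per group, and dotted lines mark 2-fold. Casp4 lies at -3.46 and -4.43, Il1a, Il1rn and Casp1 also lie below -1 on both axes, Il1r2 and Nlrp3 lie above 1 on both, and Il18 has opposite signs.

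The third comparison set the LPS responses of the genotypes against each other. Of the 10 genes, 2 had a log2 response at least 1 higher in LXR-DKO than in WT, namely Il1r2 and Il18, against 7.61% of 12478 genes, and 0 had one at least 1 lower, against 2.07%. Both had lower signals with LPS in wild-type cells and LXR-DKO ratios within the spread. The difference was 0.82 for Il1rn, 0.44 for Il1b and at least 0.93 for Il1a, which has no defined difference under a floor at the 75th percentile, where both untreated signals lie below it. The difference was -0.26 for Il1rap, -0.30 for Casp1, -0.37 for Nlrp3 and 0.29 for Pycard, all within the spread of 0.43. For Casp4 only a lower limit of -0.96 can be given, since its untreated LXR-DKO signal lay below the floor, so its direction is not settled.

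Patterns over the 4 arrays were compared with those of the 9622 other genes that reached the floor on each array, by the root mean square distance of log2 signals after each gene was centred on its own mean. With 4 arrays such likeness is only a description. Il1b was nearest to Inhba at 0.40, an activin subunit gene, followed by Cfb at 0.47, a complement factor gene, and Ly6i at 0.47. Il1rn was nearest to Gstt2 at 0.073, Tnfaip2 at 0.093 and Pla2g7 at 0.098, and Casp1 to Slc41a2 at 0.055, Mocs2 at 0.056 and P2rx4 at 0.066. Il18 was nearest to Sirpb1a at 0.12, a signal-regulatory protein family gene, with signals of 766.4, 173.4, 398.1 and 331.0 in the order WT control, WT LPS, LXR-DKO control and LXR-DKO LPS. Il1r2 was nearest to Nfe2 at 0.18, a haematopoietic transcription factor gene, with signals of 180.7, 30.2, 553.6 and 348.8. Nlrp3 was nearest to Chd7 at 0.046. Among the 10 genes themselves, the closest pair was Il1rn and Casp1 at 0.31. For Il1b the nearest of the other members was Il1rn at 2.19, with 433 genes of the array nearer, while Il1a and Casp4 were left out of this comparison by their floor value.

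Among other genes of the interleukin 1 family, the receptors of interleukin 18 were higher and interleukin 36γ was lower in LXR-DKO. Of 14 further ligands, receptors and binding proteins, 13 could be named on the array, and 8 were measured in control and 11 with LPS. In LXR-DKO control, 4 of 8 were at least 2-fold higher and 1 was lower, against 12.7% and 9.28% of all genes. With LPS 4 of 11 were higher and 1 lower, against 17.8% and 8.76%, with median log2 ratios of 1.23 and 0.39. Il18r1, which encodes the binding chain of the interleukin 18 receptor, had signals of 6.5 and 8.3 in wild-type cells (untreated, LPS) and 1417.4 and 478.9 in their LXR-DKO counterparts. It was thus at least 49.0-fold and at least 16.6-fold higher in LXR-DKO. Il18rap, the accessory chain of the same receptor, had signals of 56.5 and 18.3 in wild-type cells (untreated, LPS) and 602.6 and 461.9 in their LXR-DKO counterparts, a 10.7-fold ratio in control and a log2 ratio of at least 3.998 with LPS. Both receptor chains were therefore detected mainly in LXR-DKO. In the same cultures many granulocyte, basophil, B cell and conventional DC markers were higher. Macrophage markers went both ways there, with the C1q genes higher and Cd68 and Mrc1 lower. The part of such cells was not tested. Il1r1, the signalling receptor for interleukin 1, had signals of 34.4 and 98.9 in wild-type cells (untreated, LPS) and 175.6 and 322.8 in their LXR-DKO counterparts, 5.10-fold and 3.26-fold higher, although the latter was under 2-fold under a floor at the 75th percentile. Sigirr, an inhibitory receptor gene, stood at 2.25 in control and 2.32 with LPS on the log2 scale, or at 0.34 and 0.14 under a floor at the 75th percentile. The gene in the opposite direction was Il1f9, the array's symbol for interleukin 36γ. It had signals of 2205.7 and 3588.9 in wild-type cells (untreated, LPS) and 157.0 and 287.4 in their LXR-DKO counterparts, which is 14.0-fold lower in control and 12.5-fold lower with LPS. With LPS, 2 of 8 measured genes of this list were higher in WT, Il1r1 and Il1f6, against 2.93% of all genes, and 1 of 11 in LXR-DKO, against 6.23%, namely Il1f6, the symbol for interleukin 36α, which was higher by at least 2.63-fold in wild-type and at least 4.21-fold in LXR-DKO cells. Il18r1 was 2.96-fold lower with LPS in LXR-DKO. The decoy-like Il18bp, whose product binds interleukin 18, had log2 LPS ratios of 0.87 and 0.54.

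Among the other sensors, caspases and pore-forming genes, Mefv was higher and Ninj1 lower in LXR-DKO in both conditions, and Aim2 was higher in control only. Of 17 in the list, 13 could be named, and with LPS 0 of 10 measured genes passed 2-fold upward in wild-type cells and 1 of 10 in LXR-DKO cells, with 0 lower in both, beside 2.93% and 6.23% of all genes upward. In LXR-DKO control 2 of 11 were higher and 1 lower, beside 12.7% and 9.28%, and with LPS 1 of 10 each way, beside 17.8% and 8.76%, so the shares were near those of all genes. The gene higher with LPS was Mefv, which encodes the sensor pyrin, with signals of 35.7 and 32.9 in wild-type cells (untreated, LPS) and 78.6 and 369.2 in their LXR-DKO counterparts, which is 4.70-fold higher with LPS in the latter. In LXR-DKO over WT, Mefv was 2.20-fold higher in control, a call lost under 3 of the alternatives, and 11.2-fold with LPS. Aim2, the gene of a cytosolic DNA sensor, was 2.52-fold higher in control and 1.03-fold lower with LPS, and Ninj1, whose product ruptures the plasma membrane of dying cells, was 2.52-fold and 2.34-fold lower, the latter a log2 ratio of -0.95 when scaled to hybridisation controls. Gsdmd, the pore former that inflammatory caspases cleave, had log2 genotype ratios of 0.08 and -0.48. The list's medians were 0.08 in control and -0.19 with LPS, and their signs changed with the scaling.

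Regulators of the inflammasome went both ways. In LXR-DKO control, 4 of 14 measured genes were past 2-fold upward and 6 downward, against 12.7% and 9.28% of all genes, and with LPS 4 were higher and 4 lower, against 17.8% and 8.76%, with medians of -0.23 and 0.31. Trem1, an amplifying receptor of myeloid cells, was higher at 2.93 and 2.27 on the log2 scale, and Gbp3, an interferon-inducible guanylate-binding protein gene, was at 2.79 in control and 0.77 with LPS. Cd36, a scavenger receptor gene, was lowest in both conditions, with signals of 9374.7 and 10947.9 in WT against 1964.0 and 1469.2, log2 ratios of -2.25 and -2.90. Panx1, a channel gene, was also lower at -1.89 and -1.98, as was Gbp2 at -1.57 and -1.72. P2rx7, the receptor for extracellular ATP that is used to trigger NLRP3, had signals of 255.0 and 311.2 in wild-type cells (untreated, LPS) and 107.6 and 47.3 in their LXR-DKO counterparts. With LPS it was 6.58-fold lower in LXR-DKO, where raising the floor to the 75th percentile left a log2 ratio of -0.81. The serpin genes Serpinb1a and Serpinb9, whose products inhibit proteases, had the largest differences of response at 2.62 and 2.23. Serpinb1a had a log2 LPS ratio of -1.95 (-0.91 with the 75th percentile floor) in wild-type and 0.67 in LXR-DKO cells, and Serpinb9 of 0.52 and 2.75. With LPS, 2 of 14 genes were higher and 1 lower in each genotype, against 2.93% and 4.79% of all genes in WT and 6.23% and 1.82% in LXR-DKO.

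Among genes that carry the interleukin 1 receptor signal, Nfkbiz and Irak3 were higher with LPS in both genotypes. Of 13 measured genes, Il1rap among them, 2 passed 2-fold upward with LPS in wild-type and 3 in LXR-DKO cells, with 0 downward, against 2.93% and 6.23% of all genes upward, and the medians were 0.28 and 0.37. Nfkbiz, a nuclear IκB family gene, had log2 LPS ratios of 3.32 in WT, where a dim control signal of 38.9 let the ratio go as low as 1.13 over the alternatives, and of 2.48 in LXR-DKO. Next came Irak3, an inhibitory kinase-like gene, with signals of 333.9 and 1034.7 in wild-type cells (untreated, LPS) and 239.2 and 801.6 in their LXR-DKO counterparts. Traf6, a ubiquitin ligase gene, was at 0.54 in WT and 1.07 in LXR-DKO, or at 0.27 in the latter at the lowest of the alternatives. Between the genotypes, 1 of 13 was higher in LXR-DKO control and 3 with LPS, against 12.7% and 17.8% of all genes, with 0 lower in both. These were Nfkbiz, at 2.83 and 1.99, and with LPS also the kinase adaptor genes Tab2 at 1.24 and Tab1 at 1.01. Scaling to the same 75th percentile left both Tab genes under 2-fold, and a floor at that percentile left Nfkbiz at 0.64 in control. Myd88, the adaptor shared with Toll-like receptors, had log2 genotype ratios of 0.19 and 0.24.

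**Figure D4:**
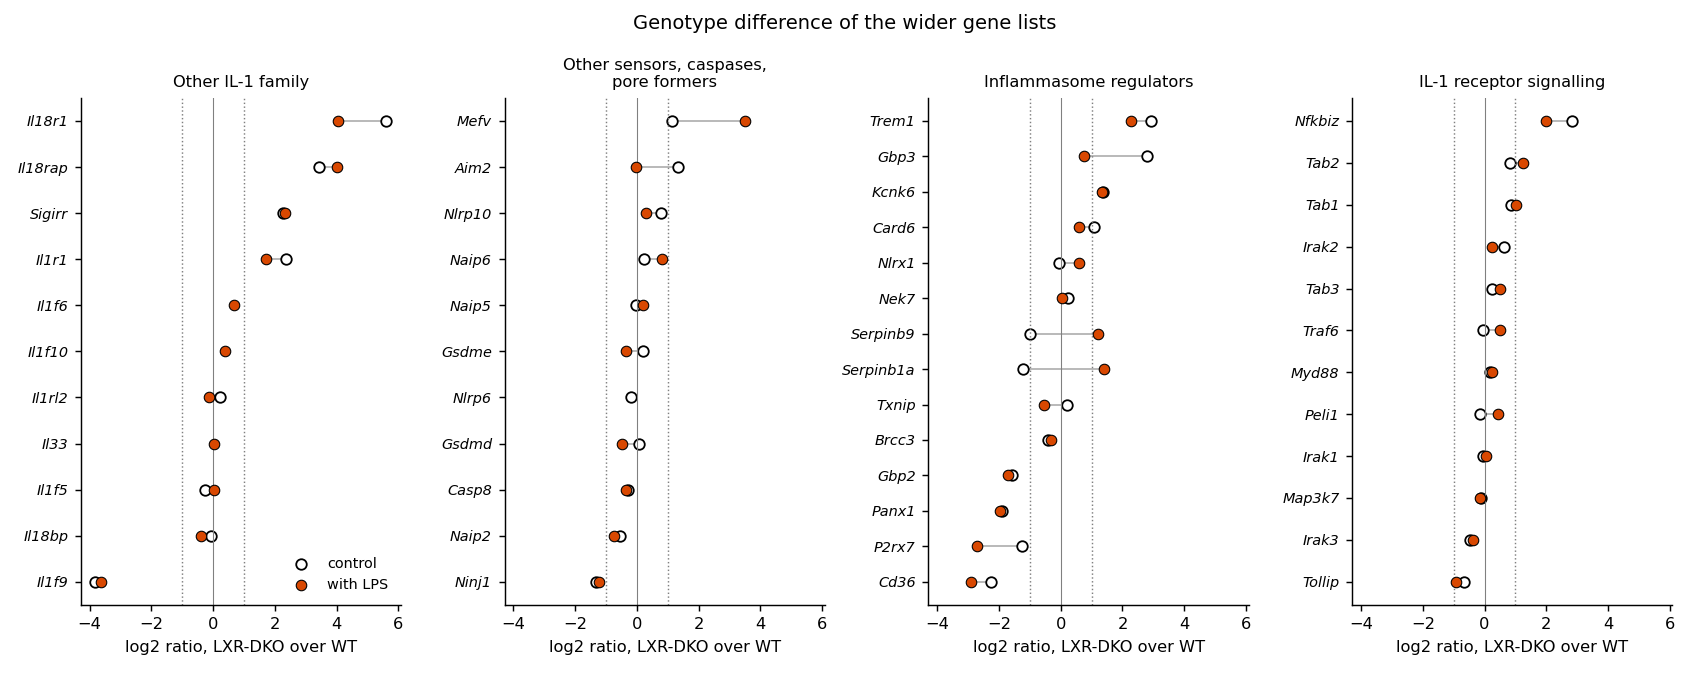
Log2 ratio of LXR-DKO over WT for the measured genes of 4 wider lists, without the 10 members, with open circles for control cultures, filled circles for LPS, 1 array per group, and dotted lines at 2-fold. Il18r1, Il18rap, Sigirr and Il1r1 lie above 1 and Il1f9 below -3 in the first panel, whereas most genes of the signalling panel lie between -1 and 1.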

How the data were processed

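RNA of 4 cultures was hybridised to 1 single-colour oligonucleotide array each, after column extraction and biotin labelling with the manufacturer's 2-cycle kit, per the labels' protocols. Per the submitters' processing notes the authors computed signals with MAS5, whose version is not given in the sources used here. Each deposited value is the intensity of 1 probe set, not logged, and the mean after leaving out 2% at each end was 200.0 on every array, so they were already scaled. Of 45101 probe sets, 64 controls were left out. Of the rest, 34945 had 1 gene symbol in the platform annotation, 932 had several and 9160 were not listed. RefSeq (GRCm38.p6) matched 34741 by gene number and changed 0 symbols.

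Each gene was taken by its probe set of highest mean signal, with the floor at the pooled median, 28.9, and counts at 2-fold. The 10 genes, the wider gene lists, the markers and the motifs were chosen with earlier results of these data known. All 10 genes were named with their probe sets, up to 5 genes of a list with the largest size of log2 ratio in the comparison described were named, as were genes showing both directions, the targeted genes and, for likeness, the 3 nearest genes. Msantd4, Gria4, the other neighbours of Casp1 and Casp4, the C1q genes, Cd68, Mrc1, the sex-linked genes and others named for contrast were chosen after their values were seen. Genes counted as differing in the 2 conditions had opposite signs, both beyond the spread. Counting was tested on simulated data, with folds placed in bright genes only and with less noise than the probe-set spread. That test therefore gives no error rate for genes near the floor. The 9 alternatives were scaling to the same 75th percentile or to hybridisation controls, quantile normalization, centring each comparison on its median, floors at the 25th percentile of 8.8 and the 75th of 177.4, log2 of the signal plus 16 without a floor, the median over probe sets, and only probe sets lacking the suffixes that mark shared targets. Python 3.11.15, numpy 2.4.6 and pandas 2.3.3 were used.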

Additional observations from a re-analysis of the deposited data

Results flagged for a closer look

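Il18 was the 1 gene of the 10 whose genotype difference changed sign between the conditions by more than the spread between probe sets. As log2 LXR-DKO over WT it was -1.16 in control and 0.74 with LPS, with 1 array on each side, so this difference was not tested. The values lay between -1.35 and -0.95 in control and between 0.44 and 1.01 with LPS over the 9 alternatives, with the same sign under each. The 0.44, found under 75th percentile scaling, is below the spread of 0.54, so the flag does not hold under that setting. Il18 has 1 probe set, so the spread comes from other genes.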

How the results depend on the processing

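Of 50 member values, 23 passed 2-fold, all 23 kept their sign under the 9 alternatives that gave a value, and 20 passed 2-fold under each of them. The exceptions were Il18 in control, at -0.95 under hybridisation control scaling, Casp4 in control, at -0.84 with the 75th percentile floor, and Nlrp3 with LPS, at 0.997 under 75th percentile scaling, all for LXR-DKO over WT. With those settings the number of members lower in LXR-DKO control was 3 under the 75th percentile floor, where Il1a gave no value, against 5, and 1 member was higher in LXR-DKO with LPS under 75th percentile scaling, against 2. For the difference of the responses, the count of members at least 1 lower on the log2 scale was 1 under 75th percentile scaling, quantile normalization and centring, from Casp4, and 2 with the 75th percentile floor, from Casp4 and Il1a, against 0 as reported. These come from signals below the floor: Casp4 has only a lower limit, which shows no lower response, and Il1a no defined difference at that floor. The other 84 of 90 alternative counts were within 1.5 times. The cause of the other shifts was not tested. Over all genes, the median log2 ratio of LXR-DKO over WT with LPS was 0.15 as deposited, -0.11 under 75th percentile scaling and 0.39 under hybridisation control scaling, and in control 0.05, -0.12 and 0.23. Il1b has no probe set without a suffix and no value there. No paired analysis was possible because each group has 1 array. Signals near the floor, such as Casp4 in LXR-DKO, give limits only.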

Other observations

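Il1r2 begins a run of 6 receptor genes that neighbour each other on chromosome 1 in the RefSeq order, namely Il1r2, Il1r1, Il1rl2, Il1rl1, Il18r1 and Il18rap. Of the 5 that could be named on the array, 4 passed 2-fold upward in LXR-DKO in control and 4 with LPS, against 12.7% and 17.8% of all genes. The one that was not, Il1rl2, had signals of 423.9 and 529.4 in WT and of 493.8 and 477.8 in LXR-DKO. These come from the brighter of its 2 probe sets. Over the alternatives its log2 ratio of LXR-DKO over WT lay between -0.26 and 0.42 in control. With LPS that range was -1.11 to 0.13. Of the genes next to the run, Map4k4 had log2 ratios of LXR-DKO over WT of -0.28 in control and 0.996 with LPS, and Slc9a4 lay below the floor on all 4 arrays. Il1r2 itself is in these counts, the other genes of the run were already counted above, and the run was chosen with earlier results known. These counts are therefore no separate evidence. With a floor at the 75th percentile, Il1r1 with LPS was at 0.86 on the log2 scale.

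On chromosome 2, the neighbours of Il1rn on one side are Il1f10, Il1f5, Il1f6 and Il1f9. Il1rn and Il1f9, the brightest of these, were both lower in LXR-DKO in both conditions, whereas Il1f5 and Il1f10 had signals of at most 37.9. Il1f6 went the other way with LPS, at 76.1 in wild-type and 121.7 in LXR-DKO cells (log2 ratio 0.68), and was below the floor in both untreated cultures. Psd4, on the other side of Il1rn, was higher, at 0.96 and 1.04 on the log2 scale. These neighbours were chosen after their values were seen.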
